A study of Mus musculus with 4 samples.

Results

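The levels of 10 transcription factors of the naive pluripotency network were followed in mouse blastocysts: Pou5f1, Sox2, Nanog, Klf4, Klf2, Esrrb, Tfcp2l1, Prdm14, Zfp42, and Tbx3. They were chosen by name, and all 10 were found, each on a single row, among the 20714 gene symbols listed in both assays. RNA-seq (Smart-seq2, from polyA RNA) gave the mRNA level, and Ribo-seq gave the level of ribosome-protected fragments (RPF, also called footprints), with 2 replicate libraries for each. All 4 libraries came from wild-type embryos of 4-week-old C57BL/6J females mated with PWK/PhJ males, while the strain label reads C57BL/6N x PWK. The paper states that these females received injections of the hormones PMSG and hCG to induce ovulation. It cautions that superovulation may affect embryo quality. The embryos were taken at the 8-cell stage, grown to blastocysts in KSOM medium, and freed of the zona pellucida. Levels are in FPKM, which scales each gene by its length (transcript for mRNA, coding sequence for RPF) and by the size of the library. Nothing in the labels says that the replicates came from separate pools of embryos, so the tests below measure the spread between these libraries, which may be technical.

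A blastocyst holds an outer trophectoderm, which forms the placenta, and an inner cell mass, which divides into the epiblast and the primitive endoderm. The naive epiblast depends on Pou5f1 (Oct4) and Sox2, which bind DNA side by side, and on Nanog. An outer circle of factors that includes Klf2, Klf4, Esrrb, Tfcp2l1, Tbx3, and Prdm14 holds embryonic stem cells in the naive state, and Zfp42 (Rex1) is a classical marker of that state. These libraries were made from whole embryos, so fewer cells of a type and less RNA per cell cannot be told apart.

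Binding sites shared by these factors are part of the textbook network, so the promoters were searched for the octamer core that Pou5f1 reads. RefSeq promoters on GRCm38.p6, from 250 bases before to 50 bases after a start site, were found for 8 of the 10 genes. The motif ATGCAAA, on either strand, was in promoters of Sox2, Nanog, and Zfp42, or 3 of these 8 genes. Counted by promoter, it was in 4 of the 11 entries of these genes and in 4.63% of all 32851 promoters. A joint Oct and Sox motif, in which TTTGCAT (the same core read on the other strand) is followed after 1 base of any kind by ACAATG, was found on either strand in 2 of the 32851 promoters, both of them overlapping entries of Nanog. The stretches around the matches are shown to place the motif in each promoter, with the match in capitals and each read 5′ to 3′ along the gene's strand.
Sox2, chr3:34649882-34649916, plus strand: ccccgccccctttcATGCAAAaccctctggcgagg
Nanog, chr6:122707400-122707441, plus strand: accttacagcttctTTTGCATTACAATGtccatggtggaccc
Zfp42, chr8:43307174-43307208, minus strand: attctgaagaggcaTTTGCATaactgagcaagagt
The match began 99 bases before the start site of Sox2, 75 bases before the upstream start site of Nanog, and 185 bases before that of Zfp42. A match describes the letters in this window and says nothing of binding in these embryos.

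Because RPF reports on translation, the start of each coding sequence is also shown, in the annotated transcript with the longest complete coding sequence. Positions are given on NCBIM37 (mm9), and the start codon is in capitals.
Pou5f1, chr17:35643036-35643050, plus strand: accttccccATGgct
Sox2, chr3:34549329-34549343, plus strand: agcgcccgcATGtat
Nanog, chr6:122657792-122657806, plus strand: cacactgacATGagt
Klf4, minus strand, across an exon junction: cccacattaATGagg
Klf2, chr8:74842968-74842982, plus strand: gtccctgccATGgcg
Esrrb, chr12:87762856-87762870, plus strand: acgggactgATGgac
Tfcp2l1, chr1:120524609-120524623, plus strand: gcctcagccATGctg
Prdm14, chr1:13115911-13115925, minus strand: cagcttgcgATGgcc
Zfp42, chr8:44381811-44381825, minus strand: taagacaacATGaat
Tbx3, chr5:120122016-120122030, plus strand: ctggagtggATGagc
A purine at position -3, counted from the A of the start codon, favours initiation in the Kozak context. It was present in 5 of the 10 genes (Nanog, Klf2, Tfcp2l1, Prdm14, and Zfp42) and in 84.1% of 18978 genes with a complete coding sequence. Klf4, Esrrb, Nanog, and Tbx3 have other annotated starts that differ at this position, and for Klf4 the other start is gagtctgacATGgct, with a purine there.

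All 10 factors had a value above 0 in all 4 libraries, but they fell into a high and a low group. Pou5f1, Tfcp2l1, Nanog, and Zfp42 had a mean mRNA of at least 10 FPKM and a mean RPF of at least 100 FPKM. The other 6 had a mean mRNA of 4.39 FPKM or less and a mean RPF of 36.2 FPKM or less. At the RPF level the order was Pou5f1, Tfcp2l1, Nanog, Zfp42, Sox2, Tbx3, Klf2, Esrrb, Klf4, and Prdm14. The replicate values of Tfcp2l1 and Nanog overlapped, as did those of each neighbouring pair from Sox2 to Klf4, whereas the other neighbours were separated. At the mRNA level the order was Tfcp2l1, Zfp42, Pou5f1, Nanog, Tbx3, Klf2, Esrrb, Sox2, Klf4, and Prdm14. Neighbours overlapped in this order except that Tbx3 was separated from both Nanog and Klf2. Sox2 had rank 5 at the RPF level and rank 8 at the mRNA level.

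**Figure D1:**
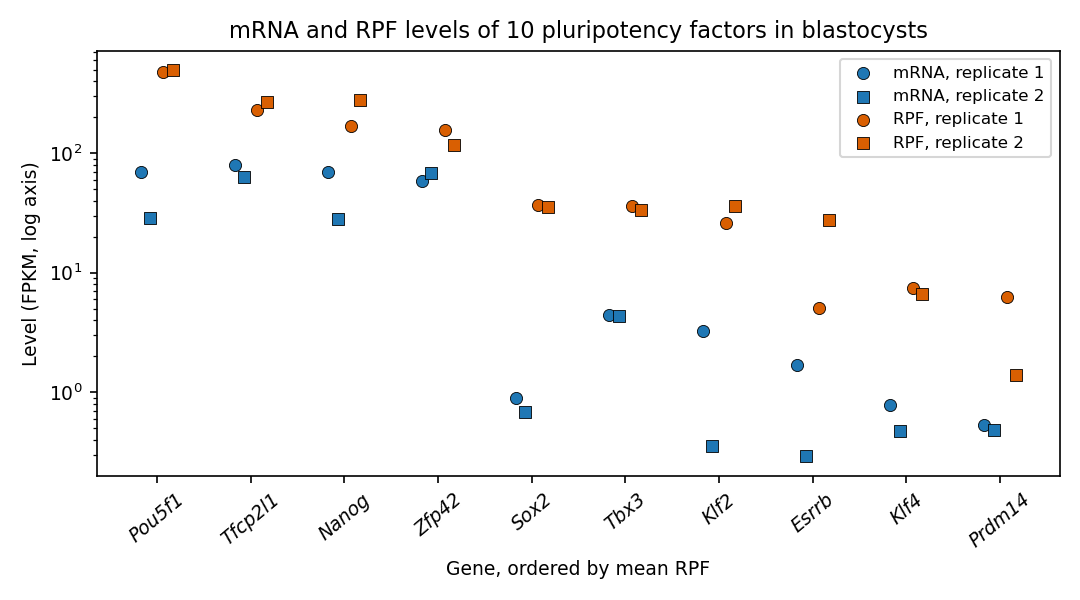
Level of each factor in every library, in FPKM on a log axis, for mRNA (blue) and RPF (orange), with circles for replicate 1 and squares for replicate 2. Pou5f1, Tfcp2l1, Nanog, and Zfp42 stand apart at both levels, and for each of the 10 genes both RPF points lie above both mRNA points. FPKM values were higher for RPF than for mRNA in most genes, with a median ratio of the means of 2.80 over the 8327 genes tested.

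Pou5f1 (ENSMUSG00000024406.9, chromosome 17, 35642982 to 35647721) encodes the POU-domain factor that the epiblast cannot do without. Its mRNA level was 70.1 FPKM in replicate 1 and 28.6 FPKM in replicate 2, and its RPF level was 475 and 496 FPKM. The footprints were steady between replicates while the mRNA was not, by 2.46-fold. The mean RPF of 486 ± 15.0 FPKM (SD, n = 2) was above that of 97.3% of the 20714 genes, and the mean mRNA of 49.3 ± 29.4 FPKM (SD, n = 2) was above 93.8%.

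Sox2 (ENSMUSG00000074637.3, chromosome 3, 34548927 to 34551383) encodes the HMG-box partner of Pou5f1 and consists of 1 exon. Its mRNA was 0.889 and 0.682 FPKM and its RPF was 37.1 and 35.4 FPKM in replicates 1 and 2. Sox2 was thus low as mRNA and well above its mRNA as RPF, with the replicates of each assay close together. The mean RPF was 46.1 times the mean mRNA. The mRNA values rest on 11 and 8 fragments and the RPF values on 15 and 13 footprints, so the ratio has a wide counting error. The annotated span of the long noncoding RNA Sox2ot covers the whole of Sox2 on the same strand. Whether exons of Sox2ot overlap Sox2 was not examined, so some RNA-seq fragments there may come from Sox2ot. Pou5f1 exceeded Sox2 by 12.8-fold and 14.0-fold in the Ribo-seq replicates, and by 78.9-fold and 41.8-fold in the RNA-seq replicates.

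Nanog (ENSMUSG00000012396.5, chromosome 6, 122657507 to 122664651) encodes the homeodomain factor that sets the epiblast apart from the primitive endoderm. Its mRNA was at 69.8 FPKM in replicate 1 and 28.1 FPKM in replicate 2, and its RPF was at 169 and 278 FPKM. The mRNA was higher in replicate 1 and the RPF in replicate 2, but libraries of the 2 assays with the same number are not stated to share embryos. In each RNA-seq library Nanog lay within 1.02-fold of Pou5f1, whereas Pou5f1 exceeded Nanog by 2.82-fold and 1.78-fold in the Ribo-seq libraries.

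Klf2 and Klf4 encode related zinc-finger factors that can substitute for each other in stem cells. Klf2 (ENSMUSG00000055148.7, chromosome 8, 74842932 to 74845555) reached 3.27 FPKM as mRNA in replicate 1 and 0.357 FPKM in replicate 2, against 26.0 and 35.9 FPKM as RPF. Klf4 (ENSMUSG00000003032.7, chromosome 4, 55540013 to 55545347) reached 0.775 and 0.477 FPKM as mRNA, against 7.48 and 6.60 FPKM as RPF. At the RPF level Klf2 was above Klf4 in both replicates, by 3.48-fold and 5.44-fold. At the mRNA level the replicates disagreed on their order, since the ratio of Klf2 to Klf4 was 4.22 in replicate 1 and 0.748 in replicate 2. In RNA-seq replicate 2 Klf2 rested on 3 fragments and Klf4 on 7, so counting error leaves their order there open. Klf4 rested on 5 and 4 footprints, just above a floor of 3 footprints.

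Esrrb (ENSMUSG00000021255.10, chromosome 12, 87702067 to 87862578), an orphan nuclear receptor, was the least settled of the 10 genes. Its mRNA was 1.70 and 0.292 FPKM and its RPF was 5.03 and 27.7 FPKM in replicates 1 and 2. The RPF level was 5.51-fold higher in replicate 2 and the mRNA level 5.85-fold higher in replicate 1. The RPF values correspond to 3.12 and 15.6 footprints. Taken as 3 and 16 whole footprints, their 95% Poisson intervals were 0.619 to 8.77 and 9.15 to 26.0, which nearly meet, so that rounding decides whether they overlap. No order between Esrrb and its neighbours can be drawn from these libraries.

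Tfcp2l1 (ENSMUSG00000026380.9, chromosome 1, 120524522 to 120581744) encodes a Grainyhead-like factor that acts downstream of LIF and STAT3. Its mRNA was at 80.1 and 63.6 FPKM, and its RPF was at 231 and 268 FPKM. It was among the highest of the 10 genes in both assays, above 95.4% of all genes for mRNA and for RPF alike. The T-box gene Tbx3 (ENSMUSG00000018604.11, chromosome 5, 120120678 to 120134733) was at 4.40 and 4.38 FPKM as mRNA and at 36.0 and 33.6 FPKM as RPF. Both replicate pairs of Tbx3 were close, and its RPF overlapped that of Sox2 and Klf2. The gene Gm2301 overlaps Tbx3 on the opposite strand over 697 bases, and no strand is stated for the RNA-seq values.

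Zfp42 (ENSMUSG00000051176.5, chromosome 8, 44380422 to 44392363) encodes a zinc-finger protein of the Yy1 family. Its mRNA was 58.7 and 68.6 FPKM and its RPF was 158 and 118 FPKM in replicates 1 and 2. It was the only 1 of the 10 genes with more mRNA in replicate 2, and its RPF-to-mRNA ratio of 2.17 was the lowest of the 10. Prdm14 (ENSMUSG00000042414.7, chromosome 1, 13103538 to 13117244) encodes a PR-domain factor that represses FGF signalling and de novo DNA methylation genes in stem cells. Its mRNA was 0.536 and 0.485 FPKM and its RPF was 6.30 and 1.39 FPKM, or 5 footprints and 1. With so few footprints its RPF level was not separable between the replicates at this depth.

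The steps of low FPKM values implied 532809 and 483562 footprints in the Ribo-seq replicates and about 10 times as many fragments in the RNA-seq replicates (5439466 and 5155220). For a coding sequence of 1 kilobase, 3 footprints corresponded to 7.04 and 7.76 FPKM. The 4 highest factors had 38 to 217 footprints per library, and the other 6 had 1 to 39. Intervals and floors cover counting error only, since reads without molecular identifiers are not independent molecules. Of the 28-base windows of the coding sequence, 32.1% in Zfp42, 26.8% in Nanog, and 23.8% in Pou5f1 occurred at more than 1 place in the genome. Of the windows of Sox2, 2.25% were shared with the coding sequence of another Sox gene. None of the windows of the 10 genes occurred at more than 20 places, the limit that the authors set per read. No window of Zfp42, Nanog, or Pou5f1 was found in a coding transcript of another gene. These 3 genes are uncertain to the extent that reads from repeated windows were split or placed elsewhere. Windows were matched exactly, whereas the authors allowed 2 mismatches in Ribo-seq.

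**Figure D2:**
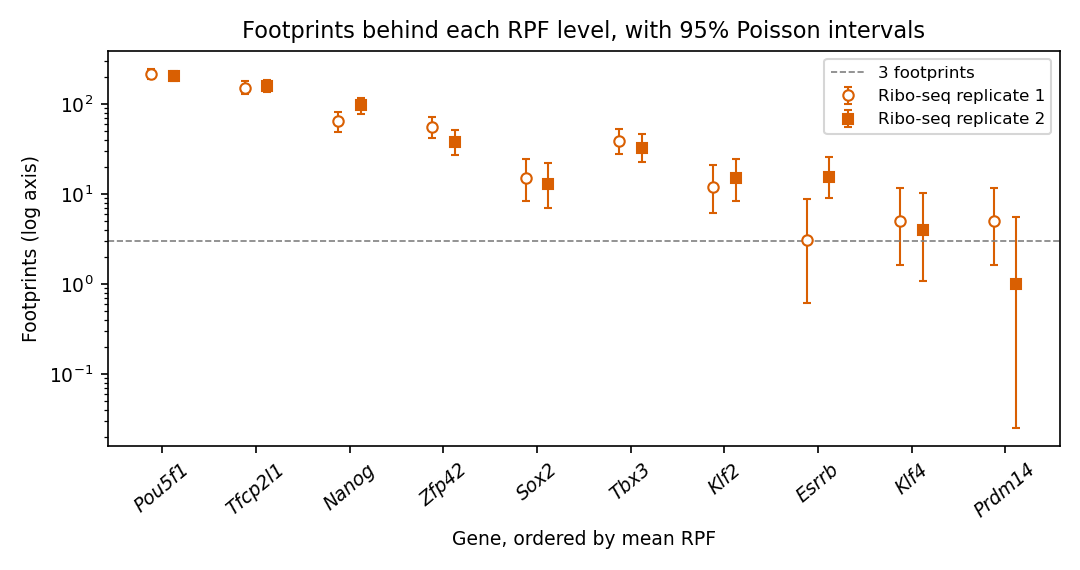
Footprints behind the RPF level of each factor in Ribo-seq replicate 1 (open circles) and replicate 2 (filled squares), on a log axis, with 95% Poisson intervals and a dashed line at 3 footprints. Klf4 and Prdm14 have 5 footprints or fewer in either replicate, and Esrrb has 3.12 and 15.6.

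Whether the factors had more or fewer footprints than their mRNA would give was tested by fitting RPF minus mRNA across all genes. The fit used log2(FPKM + 1), with each library centred on its median, for the 8327 genes with a mean of at least 1 FPKM in both assays. Pou5f1, Nanog, Klf2, Tfcp2l1, Zfp42, and Tbx3 passed this filter, and Sox2, Klf4, Esrrb (mean mRNA 0.998 FPKM), and Prdm14 did not. On this scale the difference was 2.21 for Klf2, 1.91 for Pou5f1, 1.23 for Tbx3, 0.76 for Nanog, 0.29 for Tfcp2l1, and -0.41 for Zfp42. The median over these 6 genes was 0.99, beside -0.24 over all genes tested.

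None of the 6 passed an adjusted p under 0.05 with a difference of at least 1 (limma, Benjamini-Hochberg), where 6.65% of all genes tested were called higher and 5.31% lower at the RPF level. The nearest was Tbx3, with an adjusted p of 0.0502 (limma, SE 0.23, 95% interval 0.58 to 1.88). Pou5f1 had an adjusted p of 0.0831 (limma, SE 0.51, interval 0.50 to 3.31) and Klf2 of 0.0983 (limma, SE 0.66, interval 0.40 to 4.02). These 3 were at an unadjusted p under 0.05 (limma). The share of all genes at that level is not given here, so this count does not set them apart. The intervals of Nanog (-0.85 to 2.37), Tfcp2l1 (-0.49 to 1.07), and Zfp42 (-1.16 to 0.34) included 0, which does not show that their RPF and mRNA were equal. For the 4 genes under the filter, a fit of 13402 genes with no filter gave a difference of 3.15 for Sox2 (limma, SE 0.24, adjusted p = 0.0146), 1.08 for Klf4 (adjusted p = 0.0397), 1.58 for Esrrb (adjusted p = 0.276), and 0.24 for Prdm14 (adjusted p = 0.780). In that fit 4 of the 10 factors were called higher (Sox2, Pou5f1, Tbx3, and Klf4), where 10.4% of its genes were called higher and 23.1% lower. The 4 genes under the filter had a mean mRNA below the pseudocount of 1, which shrinks their differences. Sox2 rests on 8 to 15 fragments or footprints per library, so its SE may understate the error. Without Ribo-seq replicate 1 the factors called higher were Klf2, Pou5f1, and Tbx3 (3), beside 14.8% of all genes in that fit (20.7% were lower). Without Ribo-seq replicate 2 they were Pou5f1 and Tbx3 (2), beside 14.6% of all genes (20.2% were lower), and without either RNA-seq replicate 0 factors and 0 genes were called.

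**Figure D3:**
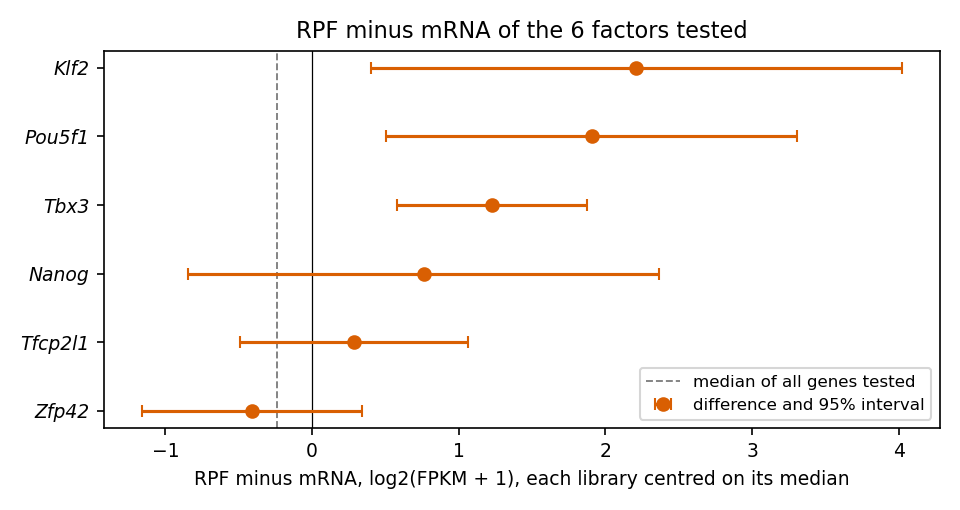
RPF minus mRNA on the log2(FPKM + 1) scale, each library centred on its median, for the 6 factors that passed the filter, with 95% intervals from limma. The intervals of Klf2, Pou5f1, and Tbx3 lie above 0, and the dashed line marks the median of all 8327 genes tested, -0.24.

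**Figure D4:**
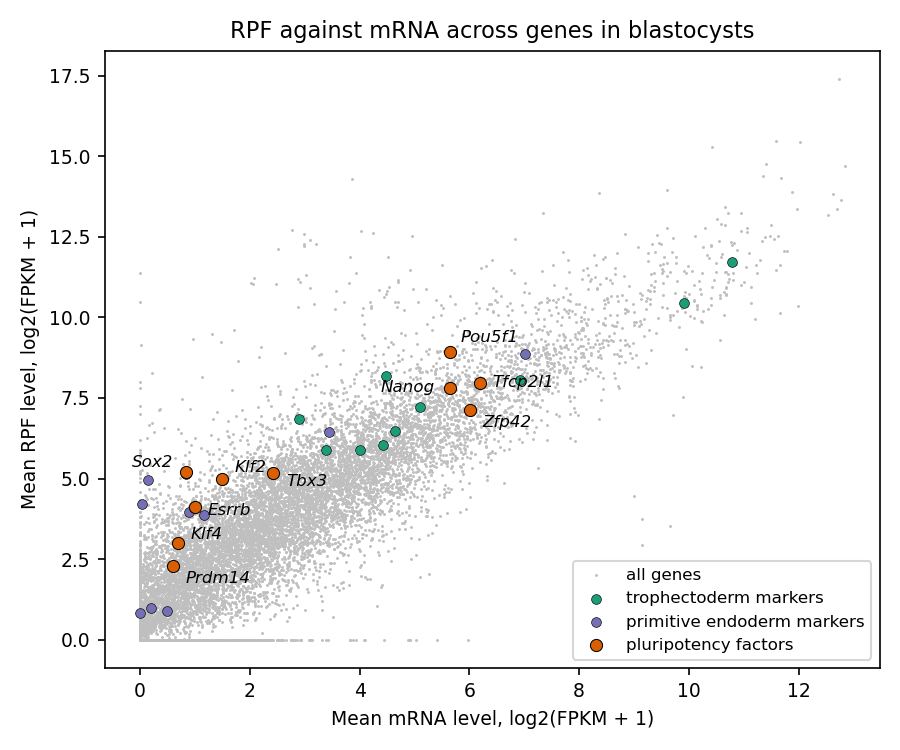
Mean RPF against mean mRNA, both as log2(FPKM + 1), for all 20714 genes (grey), the 10 pluripotency factors (orange), 10 trophectoderm markers (green), and 10 primitive endoderm markers (purple). Sox2 lies near the upper edge of the cloud at a low mRNA level, and Pou5f1 is the highest of the factors on the RPF axis.

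The replicates of RNA-seq differed for some of these factors more than for most genes. This comparison was chosen after the values were seen. Among genes with a mean of at least 1 FPKM, replicate 1 exceeded replicate 2 by at least 1 on the log2(FPKM + 1) scale in 2.98% of 8746 genes at the mRNA level. Of the 6 factors with that mRNA level, 3 did so: Klf2 (1.65), Nanog (1.28), and Pou5f1 (1.27). Esrrb, just under this level, differed by 1.07. In the opposite direction 3.06% of genes differed by as much and 0 of the 6 factors did. The gap was not confined to the factors. Replicate 1 was higher by as much in 2 of 17 partner factors and 2 of 14 targets of the network, the lists described below. Replicate 2 was higher by as much in 2 of these partners and 0 of these targets. The mRNA of 9 of the 10 factors was higher in replicate 1, by as little as 0.0071 for Tbx3.

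The footprints did not repeat this split. Replicate 1 exceeded replicate 2 by at least 1 on the same scale in 18.3% of 10048 genes at the RPF level, and among the 10 factors in Prdm14 (1.61). Replicate 2 exceeded replicate 1 by as much in 12.8% of genes, and among the 10 factors in Esrrb, by 2.25. Pou5f1 and Sox2 differed by 0.06 in the Ribo-seq replicates. Since the RNA-seq and Ribo-seq libraries with the same number are not stated to share embryos, the mRNA gap was carried into the error of each difference above. Of 10 trophectoderm markers, 3 (Eomes, Elf5, and Krt7) had at least 1 more in RNA-seq replicate 2 and 0 in replicate 1, while 5 were above in each replicate. Their summed mRNA was 3062 FPKM in replicate 1 and 2864 FPKM in replicate 2, while that of the 10 factors was 290.2 and 195.6 FPKM. Krt8 and Krt18 carried the trophectoderm sum, and the other 8 markers summed to 227 FPKM in replicate 1 and 272 FPKM in replicate 2. The part of cell composition in this gap was not tested.

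**Figure D5:**
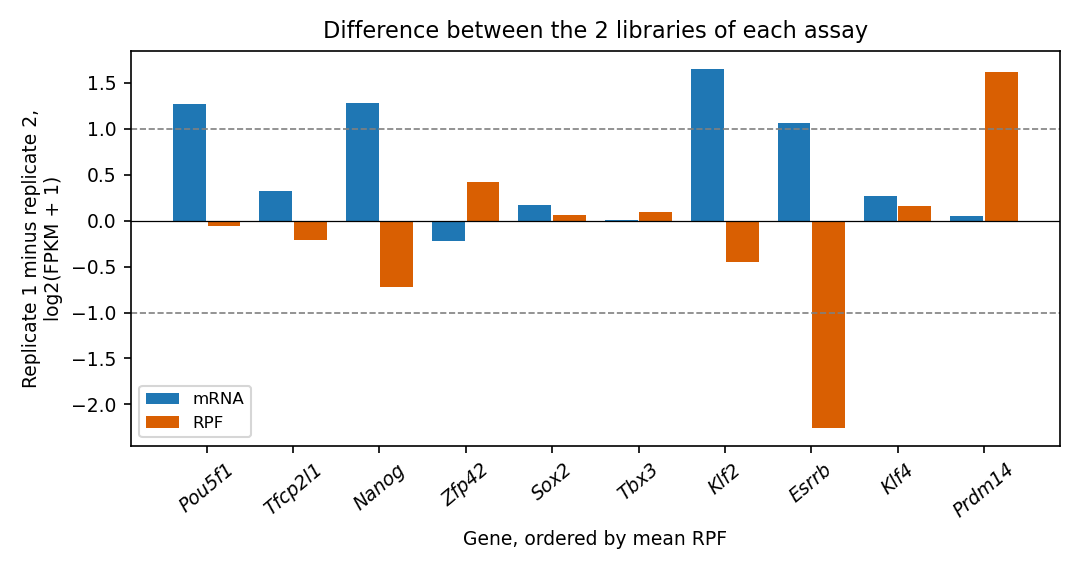
Replicate 1 minus replicate 2 for each factor on the log2(FPKM + 1) scale, for mRNA (blue) and RPF (orange), with dashed lines at 1 and -1. The mRNA bars of Pou5f1, Nanog, Klf2, and Esrrb pass 1, whereas among the RPF bars those of Prdm14 (1.61) and Esrrb (-2.25) pass the lines.

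All factors but Nanog were also placed within a gene family, whose other members are named where their mean was at least 10 FPKM in either assay. Pou5f1 was the highest of 15 Pou genes in both assays, and Pou2f1 was the only other one with a mean of at least 10 FPKM, with 24.8 and 7.56 FPKM of RPF. Among 19 Sox genes, the RPF of Sox15 was at 26.6 and 46.0 FPKM and its mRNA at 13.4 and 15.8 FPKM, so that its RPF overlapped that of Sox2 while its mRNA was far higher. Sox17, a primitive endoderm factor, had 32.7 and 27.6 FPKM of RPF and was listed at 0.204 and 0 FPKM of mRNA. Of 17 Klf genes, Klf5 was highest, at 521 and 386 FPKM for RPF and 94.2 and 96.7 FPKM for mRNA. Klf5 exceeded Klf2 by 20.0-fold and 10.8-fold at the RPF level. By mean RPF Klf2 had rank 4 and Klf4 rank 11, with Klf6 (119 and 65.6 FPKM) and Klf9 (66.8 and 73.6 FPKM) between Klf5 and Klf2. Klf13, at 35.1 and 18.5 FPKM of RPF, overlapped Klf2, so their order was not settled. The other Klf genes with a mean of at least 10 FPKM were Klf3, Klf8, Klf11, and Klf16.

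In the other families, Tfcp2l1 was the highest of 6 Grainyhead-like genes in both assays, and Grhl2 (22.3 and 40.6 FPKM of RPF), Grhl1, and Ubp1 also had a mean of at least 10 FPKM. Tbx20 was above Tbx3 among 13 Tbx genes, with 76.4 and 50.7 FPKM of RPF. Prdm14 was below Prdm2 among 14 Prdm genes, where Prdm2 had 16.7 and 17.1 FPKM. Of the 3 Esrr genes, Esrra had 8.77 and 1.93 FPKM of RPF, above Esrrb in replicate 1 and below it in replicate 2. Esrrg was listed at 0 in all libraries. Zfp42 was above Yy1 at both levels, although Yy1 had 80.7 and 85.0 FPKM of RPF with 1.86 and 2.61 FPKM of mRNA.

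Of 20 partner factors of the network, 17 passed the filter and none was called for RPF minus mRNA (limma). Of all genes tested, 6.65% were called higher and 5.31% lower. The median difference of the partners was 0.01, and 3 were at an unadjusted p under 0.05 (limma), again without a share of all genes. Klf5 had the highest RPF of this list. Sall4, a zinc-finger partner of Pou5f1, had 42.8 and 46.8 FPKM of mRNA and 107 and 86.8 FPKM of RPF. Nr0b1 (Dax1) was listed at 0 in all 4 libraries, and Gbx2 was listed at 0 in 3. Etv5 came closest to a call, with a difference of 2.30 (limma, SE 0.44, adjusted p = 0.0502).

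Of 22 targets and markers of the network, 14 passed the filter, 1 was called higher, and none was called lower. Beside this, 6.65% of all genes tested were called higher and 5.31% lower. The target called was Lin28a, an RNA-binding protein that blocks let-7 maturation, with 2.02 and 3.73 FPKM of mRNA and 57.0 and 43.5 FPKM of RPF. Its difference was 2.25 (limma, SE 0.34, adjusted p = 0.0372). The difference was 1.94 without RNA-seq replicate 1 and 2.56 without RNA-seq replicate 2, fits from which no call is drawn. The median difference of the list was 0.35. Dppa5a was highest, with 12490 and 13128 FPKM of RPF. Nodal and Lefty1 were listed at 0 in all libraries. Fgf4, the ligand that the epiblast sends to the primitive endoderm, had 0.519 and 0.342 FPKM of mRNA and 18.4 and 5.08 FPKM of RPF.

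Of 11 formative and primed genes, which mark the epiblast after implantation, 4 (Fgf5, Sox3, Sall2, and T) were listed at 0 in all libraries. Only Dnmt3b, a de novo DNA methyltransferase, passed the filter, with 12.6 and 18.3 FPKM of mRNA and 134 and 85.3 FPKM of RPF. Its difference of 1.23 had an adjusted p of 0.0914 (limma). Otx2 had 2.80 and 0 FPKM of RPF, and Pou3f1 was listed at 0 in 3 libraries.

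Markers of the other blastocyst lineages were present beside the pluripotency factors. All 10 trophectoderm markers had a mean RPF of at least 10 FPKM, and 2 of the 10 tested were called higher for RPF minus mRNA: Tfap2a (2.46, limma, adjusted p = 0.0239) and Cdx2 (2.205, adjusted p = 0.0290). Of all genes tested, 6.65% were called higher. Neither was called without either RNA-seq replicate. Of 10 primitive endoderm markers, 7 had a mean RPF of at least 10 FPKM but only 1, Dab2, had a mean mRNA of at least 10 FPKM. Of these, 3 passed the filter, and beside the same 6.65% of all genes Gata6 was called higher (1.497, limma, adjusted p = 0.0428). Its difference was 1.63 without RNA-seq replicate 1 and 1.36 without RNA-seq replicate 2, again with no call drawn. The RPF of Nanog exceeded that of Gata6 by 1.89-fold and 3.36-fold in replicates 1 and 2. The RPF of Pou5f1 exceeded that of Cdx2, which Pou5f1 is known to oppose in the first lineage choice, by 1.80-fold and 1.56-fold. Among 7 follicle cell genes, 6 were listed at 0 in all libraries, as were 3 of 5 oocyte genes and 2 of 3 blood genes. The exceptions (Star, Zp3, Gdf9, and Hba-a1) were at 1.92 FPKM or less.

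The genes closest in level to 6 of the factors were found by the Euclidean distance in log2(FPKM + 1) over the 4 libraries. They were Ak4 for Pou5f1 (distance 0.60), Rab27a for Sox2 (0.44), Nabp1 for Nanog (0.74), Echdc1 for Klf2 (0.86), Nsfl1c for Tfcp2l1 (0.16), and Sema4b for Tbx3 (0.23). Ak4 had 56.6 and 40.1 FPKM of mRNA and 539 and 479 FPKM of RPF. Among these 6 factors, the distances were largest for the 3 whose mRNA differed most between the replicates.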

How the data were processed

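The 2 RNA-seq and 2 Ribo-seq blastocyst libraries were grouped by their labels. The authors deposited FPKM per gene symbol and library. They trimmed reads (Trim Galore 0.4.2 for RNA-seq, cutadapt 1.14 for Ribo-seq), removed rRNA with Bowtie2 2.2.2 from Ribo-seq, used STAR 2.5.3a to place reads on mm9 transcripts, at up to 20 places each, and ran Cufflinks 2.2.1 on transcripts or coding sequences.

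For a repeated symbol the highest value was used. RPF minus mRNA was fitted with limma 3.58.1 (R 4.3.3) on log2(FPKM + 1), with a pseudocount of 1, for genes with a mean of at least 1 FPKM in both assays, and adjusted over all of them. The fit was tested on simulated data. FPKM carry no counts, so totals were estimated from the steps of low values, with Cufflinks' default fragment length (mean 200, SD 80). The share of values within 0.1 of a whole fragment was 47.9% to 49.5% in RNA-seq and 84.2% to 85.5% in Ribo-seq, where chance gives 20%. The RNA-seq fragment counts are thus less certain. The default length was not checked against the RNA-seq reads, which the paper describes as paired-end. The Spearman correlation of replicates across 20714 genes was 0.940 for mRNA and 0.898 for RPF. Positions and lengths came from GENCODE vM1 on NCBIM37, where Tfcp2l1 is listed as Tcfcp2l1. Python 3.11.15 was used with numpy 2.4.6, scipy 1.17.1, and pandas 2.3.3.

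The factors and gene lists were chosen with earlier results of these data known. The rule for named genes was the 10 factors, the called genes of each list and at most its highest, lowest, and absent genes, relatives with a mean of at least 10 FPKM, and the nearest gene in level to Sox2 and each tested factor, which for Zfp42 is not reported here. Other genes (Sall4, Etv5, Fgf4, Otx2, Pou3f1, Gbx2, Esrra, Eomes, Elf5, Krt7, and Krt8) were named after their values were seen. Alternatives were the pseudocount, filters, normalization, variance trend, replicate block, repeated symbols, and each library left out.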

Additional observations from a re-analysis of the deposited data

How the results depend on the processing

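The tests rest on 2 libraries per assay, and the Ribo-seq depth limits Klf4, Esrrb, and Prdm14. Of the differences of the 6 tested factors, Zfp42 changed sign with no centring (1.09). The main fit called 554 genes higher and 442 lower. A pseudocount of 0.1 gave 308 and 154, with 0 targets higher. No filter gave 1396 and 3096, with 4 factors, 2 partners, 4 targets, and 1 formative gene higher, and 1 partner, 1 target, and 1 formative gene lower. A mean of at least 5 FPKM gave 620 and 751, with 1 partner higher, 0 targets higher, and 1 target lower. Quantile normalization gave 618 and 574, with 1 factor (Tbx3) and 1 partner higher and 2 targets lower. No centring gave 4113 higher and 65 lower, since RPF values in FPKM exceed mRNA values for most genes, with 6 factors, 12 partners, 11 targets, and 1 formative gene higher. A mean-variance trend gave 861 and 716, with 2 factors (Pou5f1 and Tbx3), 2 partners, 2 targets, and 1 formative gene higher and 1 target lower. With the replicate block, 0 genes, 0 factors, and 0 targets were called. Deviations of libraries with the same number had a correlation of 0.0099 across 8327 genes. This cannot tell whether those libraries shared embryos, since counting error in Ribo-seq could hide a shared deviation. With 1 replicate left out, where the lone library is assumed to vary like the others, the count ranged from 0 to 1187 for all genes called higher and from 0 to 1647 for those called lower. It ranged from 0 to 3 for factors called higher, from 0 to 2 for partners called higher, from 0 to 2 for partners called lower, from 0 to 1 for targets called higher, from 0 to 1 for targets called lower, and from 0 to 1 for formative genes called higher. Without either RNA-seq replicate it was 0 in each case, and without either Ribo-seq replicate it was 1172 and 1187 (higher) and 1647 and 1640 (lower). The cause of these moves was not tested.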
